A study of Homo sapiens with 6 samples.

Results

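The genes described here are 40 members of the unfolded protein response and of the ATF4 stress programme, out of 57905 gene identifiers in the deposited table. They were taken by symbol, and each matched an identifier. Of these members, 21 belong to the ATF6/XBP1 arm (chaperones, folding enzymes and degradation factors of the endoplasmic reticulum, ER), 4 are sensors or their transcription factors, and 15 belong to the ATF4 arm. NUPR1 was chosen by its measured log2 fold change, a strong fall in this very comparison, so its values are a description with no test, and it is left out of every count below.

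The miR-19a group was A549, an established human lung adenocarcinoma line, transfected at 25 nM with miR-19a (3 samples). The miR-NC group was the same line transfected at 25 nM with a negative control microRNA, miR-NC (3 samples). Both groups were harvested at 24 h and went through the same lipid transfection, and no untransfected cells were analysed here. Whether each sample was a culture of its own is not labelled, and the p-values below therefore describe sample-to-sample spread that could be purely technical.

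The ER folds secreted and membrane proteins, and unfolded protein there is sensed by 3 transmembrane proteins, ATF6, IRE1 (gene ERN1) and PERK (gene EIF2AK3). ATF6 and the spliced form of XBP1, which IRE1 produces, activate genes for chaperones and for the disposal of misfolded protein. PERK phosphorylates the translation factor eIF2, which favours translation of ATF4, and ATF4 activates genes for amino acid supply and, in lasting stress, the death-linked factor CHOP (gene DDIT3). Other eIF2 kinases also feed ATF4, so the ATF4 arm can move without ER stress. Gene-level counts record the amount of messenger RNA, and they show neither XBP1 splicing, ATF6 cleavage nor eIF2 phosphorylation.

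The transfected microRNA is shown first, because the target sites searched for here pair with its seed. The labels name miR-19a without its strand, and the mature 3p strand of RefSeq (GRCh38.p14, chr13:91350939-91350961, plus strand) is printed with the seed, bases 2 to 8, in capitals.
hsa-miR-19a-3p: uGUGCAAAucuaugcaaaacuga

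The next sequences come from promoters of ER arm members and of XBP1. Promoters in RefSeq (GRCh38.p14, 250 bases before to 50 after each gene's start, 300 in all) were searched on both strands for the ER stress element ERSE, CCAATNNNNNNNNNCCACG, and for ERSE-II, ATTGGNCCACG. Of the 40 members 35 had a promoter there, 12 of them with more than 1 start, and 5 (PDIA3, DERL1, DERL3, NUPR1 and PSPH) did not. ERSE letters stood in 25 of 27305 genes (0.0916%), and 7 of those genes were members. ERSE-II letters stood in 19 genes (0.0696%), of which 3 were members. The members were chosen as known genes of this response, so these overlaps are no independent finding. Each window below is written on the gene's own strand with the fixed letters of the element in capitals, and CGTGG in capitals marks an element that runs on the opposite strand.
HSPA5 (ERSE, chr9:125241386-125241414, minus strand): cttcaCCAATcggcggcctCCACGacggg
CALR (ERSE, chr19:12938379-12938407, plus strand): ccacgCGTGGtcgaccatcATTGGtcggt
PDIA6 (ERSE, chr2:10812848-10812876, minus strand): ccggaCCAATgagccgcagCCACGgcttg
CRELD2 (ERSE, chr22:49918549-49918577, plus strand): cctctCGTGGcgaactcggATTGGgccat
XBP1 (ERSE, chr22:28800598-28800626, minus strand): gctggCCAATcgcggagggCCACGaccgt
HYOU1 (ERSE-II, chr11:119057371-119057399, minus strand): gccccgtgaCGTGGtCCAATcccaggccg
HERPUD1 (ERSE-II, chr16:56932016-56932044, plus strand): cggacgccgATTGGgCCACGttgggagag
CANX (ERSE, chr5:179698773-179698801, plus strand): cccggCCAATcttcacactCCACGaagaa
SDF2L1 (ERSE-II, chr22:21642105-21642133, plus strand): cctcggaagCGTGGaCCAATcaaaaccct

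The first 7 of these genes rose in miR-19a cells and the last 2, CANX and SDF2L1, were not called, so the letters alone did not separate the genes that rose from those that did not. HSP90B1, the remaining member with ERSE letters, holds them at 2 places and also rose, and HYOU1 holds ERSE-II at 2 places, of which 1 is shown. Of the 10 members with either element 8 rose, with a median log2 fold change of 0.40. Among the 12 ER and sensor members whose promoters were searched and held neither, 9 rose, with a median of 0.33. The share called higher over all tested genes was 24.9%. In HYOU1 the letters TGACGTGG, the core of the XBP1 element UPRE, overlap the ERSE-II shown. UPRE letters stood in 0.927% of genes and in no other member searched. A match of letters is not a measured binding site.

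Libraries held between 15699037 and 17957932 counts. Counts were tested with edgeR's quasi-likelihood test over 12452 genes whose mean FPKM reached 1, two-sided, with Benjamini-Hochberg adjustment. A gene is called at an adjusted p under 0.05, fold changes are log2 of miR-19a over miR-NC, and CPM are counts scaled to library size with TMM factors. The markers listed for the line were high in sum, at 5544 to 5612 FPKM in miR-19a and 5724 to 5783 FPKM in miR-NC libraries. The enzymes ALDH1A1 (2195 FPKM in miR-19a and 2173 in miR-NC) and AKR1B10 (1013 and 1234) led this sum. EPCAM averaged only 0.763 FPKM in miR-19a and 0.603 FPKM in miR-NC, and CDH1 5.62 and 6.38 FPKM. Of the 9 markers tested, 3 were called higher and 4, CDH1 among them, lower. Of 7 fibroblast markers 6 had a mean under 0.1 FPKM, the exception being COL1A1 (2.57 FPKM in miR-19a and 0.903 FPKM in miR-NC, log2 1.52, SE 0.095), whose part in the results was not tested. Of 5 leukocyte markers 3 were under 0.1 FPKM, with CD3E at 0 in every library, CD79A averaged 0.207 FPKM in miR-19a and 0.233 FPKM in miR-NC, and both endothelial markers matched were under 0.1 FPKM. CD14, the leukocyte marker that could be tested, averaged 1.53 FPKM in miR-19a and 1.02 FPKM in miR-NC and was called higher (log2 0.61, SE 0.23, adjusted p = 0.025 by edgeR), and its part in the results was not tested either. The summed leukocyte markers held 1.68 to 1.94 FPKM in miR-19a and 1.00 to 1.49 FPKM in miR-NC libraries. Where a transcript is lower in such bulk samples, fewer cells that express it and less RNA per cell cannot be told apart.

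Most of the ER arm rose, whereas the ATF4 arm was split. Of the 39 members other than NUPR1, 38 were tested, and 23 were higher and 4 lower in miR-19a cells. Over all tested genes 24.9% were called higher and 23.5% lower (48.4% in either direction), and the members were chosen with earlier results of this comparison known. The median log2 fold change of the 38 was 0.20, with a range of -0.28 to 1.06, against a median of 0.00 over all tested genes. In 22 members every miR-19a library lay above every miR-NC library and in 4 below, against 27.6% and 26.4% of all tested genes (54% either way). In the ATF6/XBP1 arm 15 of 20 rose and 1 fell (median 0.32). Among the sensors 3 of 4 rose (median 0.38). In the ATF4 arm 5 of 14 rose and 3 fell (median 0.01). Changes were mostly modest: 4 members rose by at least 1.5-fold (HYOU1, ERO1A, ATF3 and TRIB3) and 0 fell by as much, where 4.59% and 3.81% of all tested genes did. Adjusted p-values of the called ER arm and sensor members lay between 6.1e-23 and 0.0028 by edgeR.

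**Figure D1:**
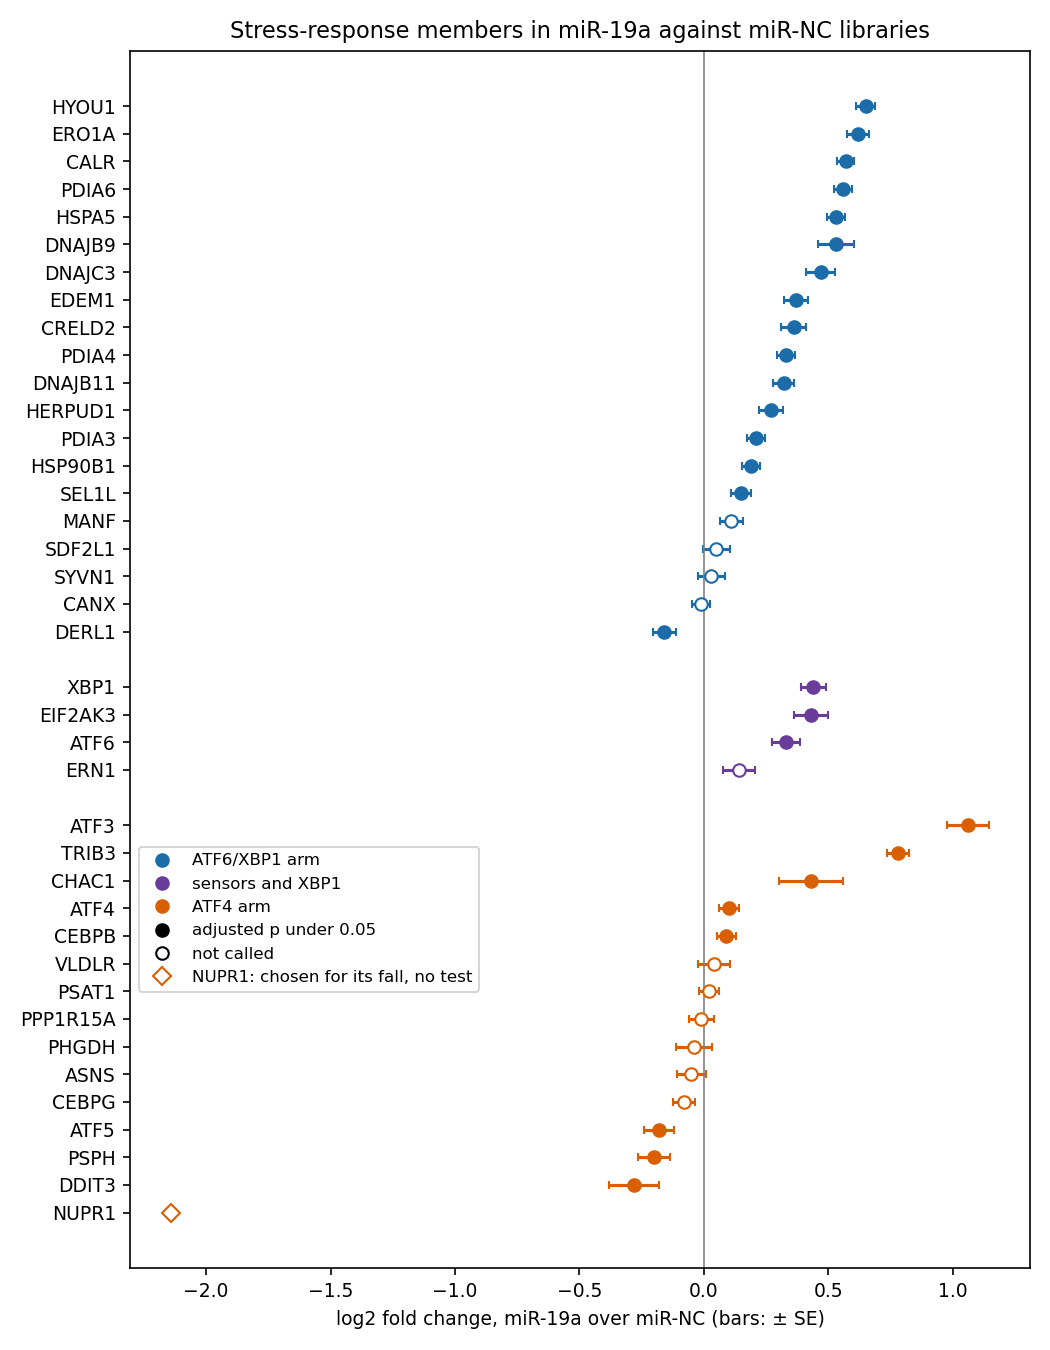
Log2 fold change, miR-19a over miR-NC, of the 39 members that passed the expression minimum, by arm; bars are the standard error of the edgeR fit, filled circles are called at an adjusted p under 0.05, and NUPR1, chosen for its fall, is an open diamond without error. The ER arm runs from HYOU1 at 0.65 to DERL1 at -0.16, and the ATF4 arm spans ATF3 at 1.06 to DDIT3 at -0.28.

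Major chaperones of the ER lumen were among the most abundant members. HSPA5, which encodes BiP, the HSP70 chaperone that holds unfolded chains and keeps the stress sensors inactive, had 1796, 1774 and 1689 CPM in miR-19a libraries, against 1207, 1228 and 1218 CPM in miR-NC libraries. The groups were well apart, and the log2 fold change was 0.53 (SE 0.036, adjusted p = 1.3e-20 by edgeR). CALR, calreticulin, a calcium-binding lectin that retains glycoproteins until they are folded, had 1001, 996 and 989 CPM in miR-19a, against 657, 684 and 674 CPM in miR-NC (0.57, SE 0.035). HYOU1, the nucleotide exchange partner of BiP, had 276, 262 and 276 CPM in miR-19a, against 173, 177 and 168 CPM in miR-NC. Of the tested ER arm members this was the largest rise, 0.65 (SE 0.039, adjusted p = 6.1e-23 by edgeR).

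The other abundant chaperones differed from these. HSP90B1, the ER form of HSP90, rose by only 0.19 (SE 0.036), with 1451 ± 38.4 CPM in miR-19a and 1272 ± 45.9 CPM in miR-NC (SD, n = 3 each). CANX, calnexin, the membrane-bound relative of calreticulin, had 989, 994 and 944 CPM in miR-19a and 959, 998 and 983 CPM in miR-NC. Its groups overlapped (-0.01, SE 0.036), so the partner lectins of the glycoprotein folding cycle differed in their change: CALR rose and CANX was not called. The difference between these genes was not tested.

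Oxidative folding enzymes, which make and rearrange disulfide bonds, all rose, 4 of 4, against 24.9% of all tested genes. PDIA6 averaged 904 ± 27.8 CPM in miR-19a and 613 ± 9.73 CPM in miR-NC (0.56, SE 0.036). PDIA4 rose by 0.33 (SE 0.036), and PDIA3, the partner of calnexin and calreticulin, by 0.21 (SE 0.036). A processed copy, PDIA3P1, held 6.67% as many counts as PDIA3. ERO1A, the oxidase that recharges protein disulfide isomerase, had 161, 163 and 154 CPM in miR-19a, against 96.8, 107.0 and 108.5 CPM in miR-NC. All miR-19a libraries lay above all miR-NC libraries, at a log2 fold change of 0.62 (SE 0.045).

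Among the co-chaperones and small ER factors 4 of 6 rose, against 24.9% of all tested genes. DNAJB9 (ERdj4), an HSP40 partner of BiP, had 38.0, 44.1 and 33.7 CPM in miR-19a, against 26.6, 26.2 and 27.2 CPM in miR-NC (0.53, SE 0.073). Exons of DNAJB9 overlap those of THAP5 and PNPLA8 on the opposite strand, which held 66.9% and 77.1% as many counts, and no source used here says whether the counting used strand. THAP5 fell by 0.32 (SE 0.079) and PNPLA8 had 0.11 (SE 0.076), and their part in the rise of DNAJB9 was not tested. DNAJC3 (p58IPK), a co-chaperone that also inhibits eIF2 kinases, averaged 60.2 ± 0.970 CPM in miR-19a and 43.3 ± 3.34 CPM in miR-NC (0.47, SE 0.058). DNAJB11 (ERdj3) rose by 0.32 (SE 0.043). CRELD2, a disulfide isomerase-like factor, rose by 0.36 (SE 0.050) and overlaps ALG12, which fell by 0.22 (SE 0.077).

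SDF2L1 and MANF, often used as readouts of ER stress, were not called. SDF2L1, a cofactor of the DNAJB11-BiP cycle, had 53.0, 53.6 and 54.9 CPM in miR-19a and 53.2, 51.7 and 51.4 CPM in miR-NC (0.05, SE 0.055). MANF, a secreted ER factor that binds BiP, had 103.5, 96.7 and 102.5 CPM in miR-19a and 98.6, 90.0 and 92.7 CPM in miR-NC. Its log2 fold change of 0.11 (SE 0.047, adjusted p = 0.0566 by edgeR) passed when miR-19a replicate 2 was left out (0.13, adjusted p = 0.0359 by edgeR) or miR-NC replicate 1 was (0.14, adjusted p = 0.0259 by edgeR).

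In ER-associated degradation 3 of 5 tested members rose and 1 fell, against 24.9% called higher and 23.5% lower among all tested genes. EDEM1, a mannosidase-like lectin that hands misfolded glycoproteins over for disposal, averaged 103.6 ± 4.28 CPM in miR-19a and 80.2 ± 2.6 CPM in miR-NC (0.37, SE 0.048). HERPUD1, a ubiquitin-like membrane protein of the disposal complex, rose by 0.27 (SE 0.047) and SEL1L, the scaffold of that complex, by 0.15 (SE 0.041). SYVN1 (HRD1), the ubiquitin ligase that SEL1L supports, averaged 61.2 ± 0.911 CPM in miR-19a and 60.1 ± 3.5 CPM in miR-NC (0.03, SE 0.054). Its exons share positions with FAU and MRPL49, which held 378% and 145% as many counts.

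DERL1, a derlin of the export channel, was the only ER arm member called lower, with 88.9, 94.6 and 91.3 CPM in miR-19a, against 100.7, 103.8 and 102.5 CPM in miR-NC. The groups did not overlap, at -0.16 (SE 0.046, adjusted p = 0.0028 by edgeR). TBC1D31, which overlaps it on the opposite strand, held 14.4% as many counts and had -0.18 (SE 0.10). DERL3, a derlin of secretory tissues, stayed under the expression minimum with 4 to 18 counts per library.

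**Figure D2:**
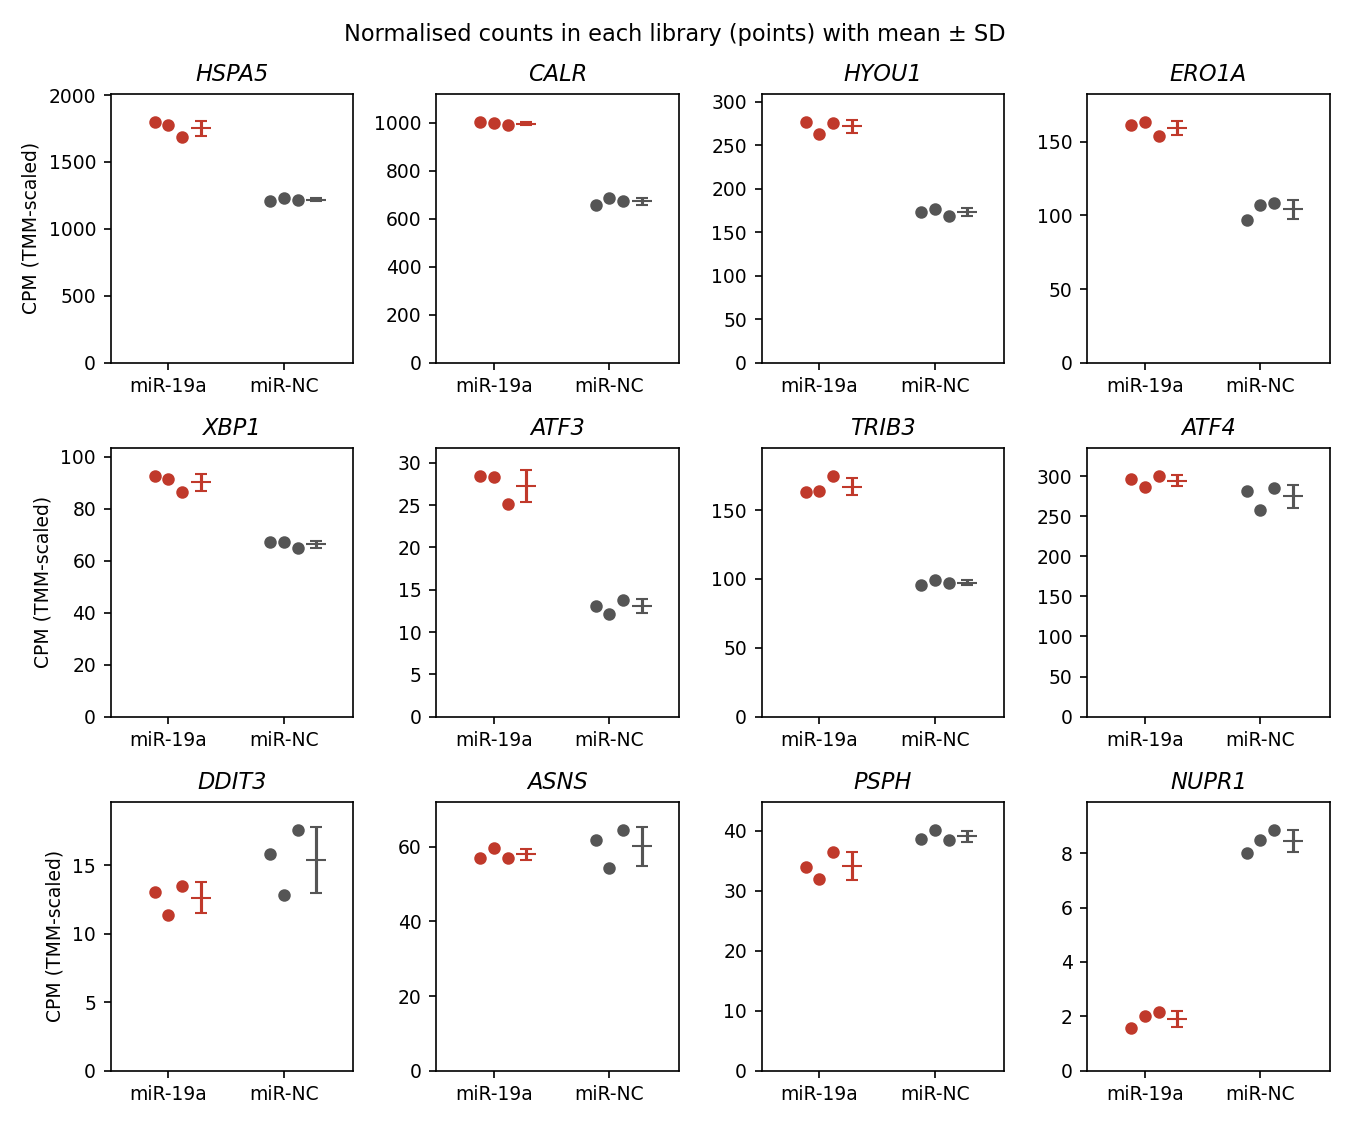
Normalised counts (CPM, y axes from 0) of 12 members in each library, miR-19a left and miR-NC right; points are libraries and the bars beside them mean ± SD (n = 3 each). HSPA5, CALR, HYOU1, ERO1A, XBP1, ATF3 and TRIB3 are separated upwards in miR-19a, DDIT3 and ASNS overlap, and NUPR1 lies at 1.55 to 2.15 CPM in miR-19a against 8.01 to 8.84 CPM in miR-NC.

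Transcripts of the sensing system rose as well. XBP1, whose spliced messenger encodes the active transcription factor, had 92.5, 91.4 and 86.6 CPM in miR-19a, against 67.2, 67.2 and 64.9 CPM in miR-NC (0.44, SE 0.049, adjusted p = 1.2e-11 by edgeR). ATF6, the sensor that is cleaved into a transcription factor, averaged 60.0 ± 2.78 CPM in miR-19a and 47.7 ± 2.44 CPM in miR-NC (0.33, SE 0.057). EIF2AK3, the kinase PERK, had 37.5, 39.1 and 36.6 CPM in miR-19a, against 27.6, 27.1 and 29.3 CPM in miR-NC (0.43, SE 0.067). In all 3 genes the groups did not overlap. ERN1, the kinase and endonuclease IRE1, overlapped between groups, with 41.0, 41.5 and 38.9 CPM in miR-19a and 35.1, 40.7 and 33.9 CPM in miR-NC. It was not called at 0.14 (SE 0.065, adjusted p = 0.0605 by edgeR), but passed when miR-NC replicate 2 was left out (0.23, adjusted p = 0.00399) or miR-19a replicate 3 was (0.17, adjusted p = 0.0465).

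In the ATF4 arm the transcription factors differed widely. ATF3, a stress-induced repressor and activator, had 28.4, 28.3 and 25.1 CPM in miR-19a, against 13.1, 12.2 and 13.8 CPM in miR-NC. This was the largest rise of any member, 2.09-fold (log2 1.06, SE 0.085, adjusted p = 2.2e-17 by edgeR), and ATF3 ranked 125 from the top of 12452 genes. It is also an early response gene of growth factor and cytokine signalling.

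ATF4 itself, the hub of the arm, had 296, 287 and 300 CPM in miR-19a, against 281, 258 and 285 CPM in miR-NC. The groups were barely apart, and the call at 0.10 (SE 0.039, adjusted p = 0.0287 by edgeR) was lost when a single library was dropped, with adjusted p = 0.102 for miR-19a replicate 1, 0.0911 for miR-19a replicate 3 and 0.217 for miR-NC replicate 2. It was also lost with library totals in place of TMM (adjusted p = 0.0729) and with limma (0.165 and 0.166 at the pseudocounts tried). ATF4 is set mainly through translation, which counts do not record. CEBPB, a leucine zipper partner of ATF4, was called higher at 0.09 (SE 0.039, adjusted p = 0.0397 by edgeR) with overlapping groups. That call was lost on dropping miR-19a replicate 2 (adjusted p = 0.0738) or 3 (0.336), or miR-NC replicate 1 (0.0957) or 3 (0.127). DESeq2 (adjusted p = 0.0739), library totals (0.0932) and limma (0.198 at both pseudocounts) did not call it either. CEBPG, another partner, was not called at -0.08 (SE 0.045), although its 3 miR-19a libraries lay below all miR-NC libraries.

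The messenger of the pro-death factor CHOP was called lower, not higher, in miR-19a cells. DDIT3, its gene, had 13.1, 11.4 and 13.5 CPM in miR-19a and 15.8, 12.8 and 17.6 CPM in miR-NC. The groups overlapped, and the call at -0.28 (SE 0.10, adjusted p = 0.0173 by edgeR) was lost when miR-19a replicate 2 was dropped (-0.22, adjusted p = 0.125), or miR-NC replicate 1 (-0.26, 0.0598) or replicate 3 (-0.18, 0.184). DESeq2 (adjusted p = 0.0655) and limma (0.0864 and 0.0874) did not call it. ATF5, a related factor that activates mitochondrial stress genes, had 39.9, 39.5 and 43.6 CPM in miR-19a, against 46.6, 45.8 and 46.9 CPM in miR-NC (-0.18, SE 0.060, adjusted p = 0.0108 by edgeR). Dropping miR-19a replicate 1 (-0.16, adjusted p = 0.0566) or replicate 2 (-0.15, adjusted p = 0.0602) removed this call. Both genes share exon positions with busier genes on the opposite strand: NUP62 held 254% as many counts as ATF5 and had -0.13 (SE 0.045), and beside the 1386 counts of DDIT3 over all libraries MARS held 21105, at 0.05 (SE 0.040), and MBD6 held 2717, at -0.22 (SE 0.076). The part of these neighbours in the falls was not tested.

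Feedback and effector genes of the arm were led by TRIB3, a pseudokinase that binds ATF4 and CHOP and restrains AKT. It had 163, 164 and 175 CPM in miR-19a, against 95.5, 99.3 and 96.9 CPM in miR-NC, a 1.72-fold rise with groups well apart (log2 0.78, SE 0.043, adjusted p = 8.1e-25 by edgeR). CHAC1, an enzyme that degrades glutathione and a target of ATF4 and CHOP, rose at a low level, with 8.95, 8.6 and 9.72 CPM in miR-19a, against 6.45, 7.25 and 6.61 CPM in miR-NC (0.43, SE 0.13, adjusted p = 0.00426 by edgeR). PPP1R15A (GADD34), the phosphatase subunit that reverses eIF2 phosphorylation, averaged 80.8 ± 5.82 CPM in miR-19a and 81.4 ± 2.21 CPM in miR-NC (-0.01, SE 0.051). VLDLR, a lipoprotein receptor that PERK signalling is known to induce, was not called at 0.04 (SE 0.065).

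Of 4 enzymes of amino acid synthesis, a supply branch of ATF4, 0 were called higher and 1 lower. Among all tested genes 24.9% were called higher and 23.5% lower, so counts over 4 genes set this branch little apart. ASNS, asparagine synthetase, had 57.1, 59.8 and 57.1 CPM in miR-19a and 61.8, 54.2 and 64.4 CPM in miR-NC (-0.05, SE 0.057). PHGDH, the entry enzyme of serine synthesis, was at -0.04 (SE 0.073), and PSAT1, the next enzyme, at 0.02 (SE 0.040). PSPH, which completes serine, had 33.9, 31.9 and 36.5 CPM in miR-19a, against 38.7, 40.1 and 38.4 CPM in miR-NC. The groups were apart at -0.20 (SE 0.064, adjusted p = 0.00918 by edgeR), and the call was lost on dropping miR-19a replicate 2 (-0.15, adjusted p = 0.0811). With that library dropped, 0 of the 3 ATF4 arm members called lower (ATF5, DDIT3 and PSPH) passed edgeR's adjusted threshold.

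NUPR1, a small chromatin-associated stress protein known as a target of ATF4, had 1.55, 2.0 and 2.15 CPM in miR-19a, against 8.01, 8.50 and 8.84 CPM in miR-NC. The groups were far apart, with 25 to 139 counts per library. Its log2 fold change of -2.14 was the seventh lowest among the tested genes, which is why it is a member. The 3′ UTR examined, of 146 bases, held no seed match for miR-19a.

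**Figure D3:**
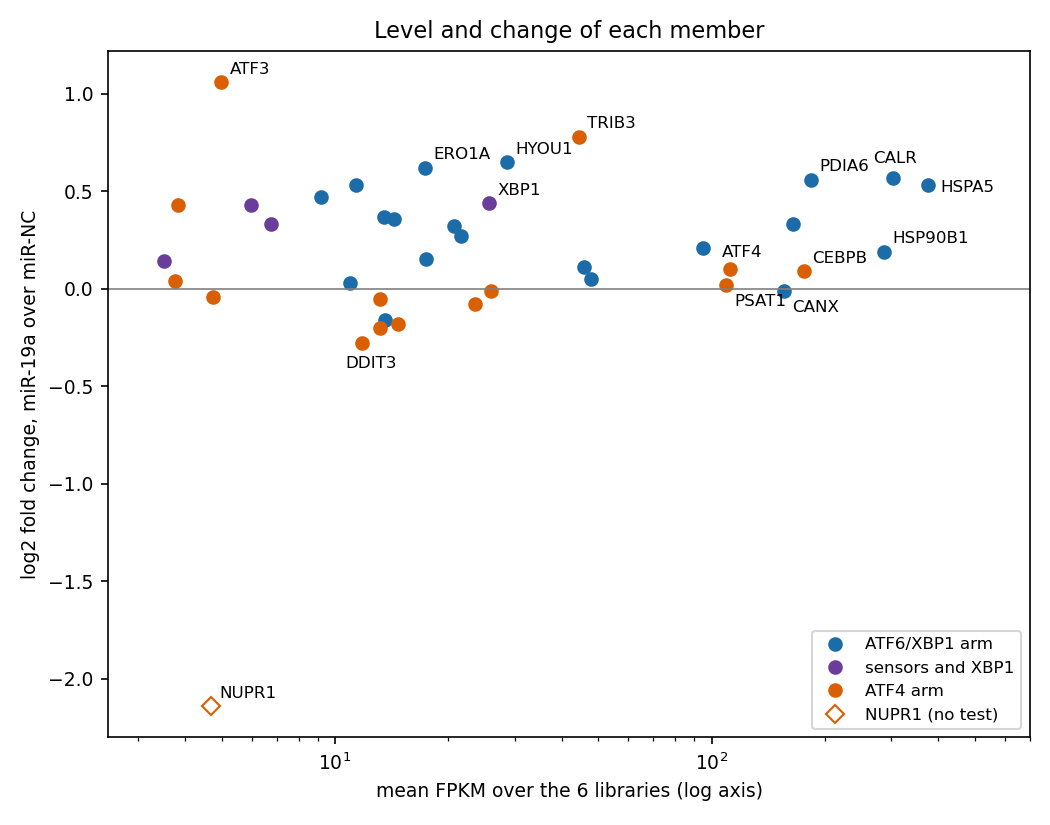
Mean FPKM over the 6 libraries (log axis) against log2 fold change, miR-19a over miR-NC, for each tested member, by arm; NUPR1 is an open diamond with no test. HSPA5, CALR and PDIA6 combine high levels with changes of 0.53 to 0.57. HSP90B1, at 288 FPKM, changed by only 0.19 and CEBPB, at 176 FPKM, by 0.09. CANX, ATF4 and PSAT1 lie at means of 156, 112 and 109 FPKM with changes of -0.01, 0.10 and 0.02, and ATF3 and NUPR1 are low in level.

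Levels can be compared between genes only per length, as FPKM. HSPA5 was the highest member at 442 FPKM in miR-19a and 311 FPKM in miR-NC, followed by CALR (362 FPKM in miR-19a and 247 FPKM in miR-NC) and HSP90B1 (305 FPKM in miR-19a and 271 FPKM in miR-NC). The sensors were far lower, ERN1 at 3.67 FPKM in miR-19a and 3.36 FPKM in miR-NC. Summed over its 21 members, the ER arm held 2079, 2085 and 2014 FPKM in miR-19a libraries, against 1594, 1630 and 1632 FPKM in miR-NC libraries. The ATF4 arm without NUPR1 held 570, 572 and 595 FPKM in miR-19a, against 544, 531 and 557 FPKM in miR-NC. A sum is led by its most abundant genes, here HSPA5, CALR and HSP90B1 in the ER arm and CEBPB, ATF4 and PSAT1 in the ATF4 arm.

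The 3′ UTRs of the members were read for miR-19a seed matches, in the GENCODE v29 transcript with the longest coding sequence (GRCh38). Coding sequences, and sites of other kinds, were not searched, so a member without a match may still be a direct target. Of the 38 tested members other than NUPR1, 6 (15.8%) held a match of 7 letters or more, against 18.6% of the 10460 tested genes with a 3′ UTR. A seed match of 5 of those members is given below, to show which class each holds, with the matched letters in capitals and 10 bases on each side.
PDIA3 (8mer, chr15:43772913-43772940, plus strand): ctatggagtcTTTGCACAgtgcccatac
SEL1L (8mer, chr14:81476010-81476037, minus strand): tgcatttcttTTTGCACAaagaacacat
DNAJC3 (7mer-m8, chr13:95791545-95791571, plus strand): tgtgcatgtgTTTGCACctctgtggtc
EDEM1 (7mer-m8, chr3:5218784-5218810, plus strand): tagctctccaTTTGCACtggccattgt
CEBPG (7mer-m8, chr19:33382451-33382477, plus strand): aacaacccatTTTGCACtcagtgcttt

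PDIA3 and SEL1L carry the strongest class of match, the 8mer, and rose by 0.21 and 0.15, whereas all 632 tested genes with an 8mer had a median log2 fold change of -0.15. DNAJC3 and EDEM1 carry a 7mer-m8, a class with a median of -0.06, and rose by 0.47 and 0.37. CEBPG (-0.08, not called) has a 7mer-m8 and DERL1 (-0.16, called lower) a 7mer-A1. EDEM1 holds a 7mer-A1 as well, and SEL1L, DNAJC3, CEBPG and DERL1 each hold a further match of 6 letters. None of the large movers of the ATF4 arm (ATF3, TRIB3 and NUPR1) held a match, nor did HSPA5, CALR, PDIA6 or HYOU1. For TRIB3 the UTR read was only 58 bases long.

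The ATF4 element, searched as TTGCATCA on both strands, stood in the promoters of 2 of 13 ATF4 arm members, CHAC1 and CEBPG, and of HERPUD1 in the ER arm, against 1.08% of genes. Here too the members were chosen as known genes of the programme. The element is shown because CHAC1 and HERPUD1 rose whereas CEBPG did not.
CHAC1 (chr15:40953251-40953280, plus strand): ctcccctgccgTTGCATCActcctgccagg
HERPUD1 (chr16:56931955-56931984, plus strand): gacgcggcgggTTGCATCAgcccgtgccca
CEBPG (chr19:33374060-33374089, plus strand, element on the opposite strand): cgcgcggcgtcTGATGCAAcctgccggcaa

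Of the other ER genes listed, 22 were further folding and glycan factors, of which 15 rose and 3 fell, with a median log2 fold change of 0.20. The J-domain protein DNAJC1 rose by 0.40 (SE 0.063), and the prolyl isomerase FKBP11 fell by 0.41 (SE 0.080). Of 25 genes of translocation into the ER and early secretory traffic 12 rose and 4 fell (median 0.12). Beside both lists, 24.9% of all tested genes were called higher and 23.5% lower. SPCS3, a subunit of signal peptidase, averaged 180.6 ± 7.64 CPM in miR-19a and 110.4 ± 4.69 CPM in miR-NC (0.71, SE 0.043), whereas SEC63, a partner of the translocation channel, fell by 0.50 (SE 0.055).

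Further degradation factors rose in 11 of 22 cases and fell in 3 (median 0.11). EDEM3, the EDEM1 relative with mannosidase activity, averaged 89.6 ± 7.87 CPM in miR-19a and 50.5 ± 3.31 CPM in miR-NC (0.83, SE 0.056), a larger change than that of EDEM1. TMEM129, an ER ubiquitin ligase, fell by 0.55 (SE 0.074). Of 14 other sensors and processing enzymes 5 rose and 2 fell (median 0.03), against 2 rises and 4 falls with limma. For these lists too the shares over all tested genes were 24.9% higher and 23.5% lower. BBC3 had the largest rise of the sensor and processing list, 0.56 (SE 0.057), and CREB3L4 the largest fall, 0.66 (SE 0.15). CREB3L2, an ATF6-like membrane-bound factor, fell by 0.32 (SE 0.054).

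**Figure D4:**
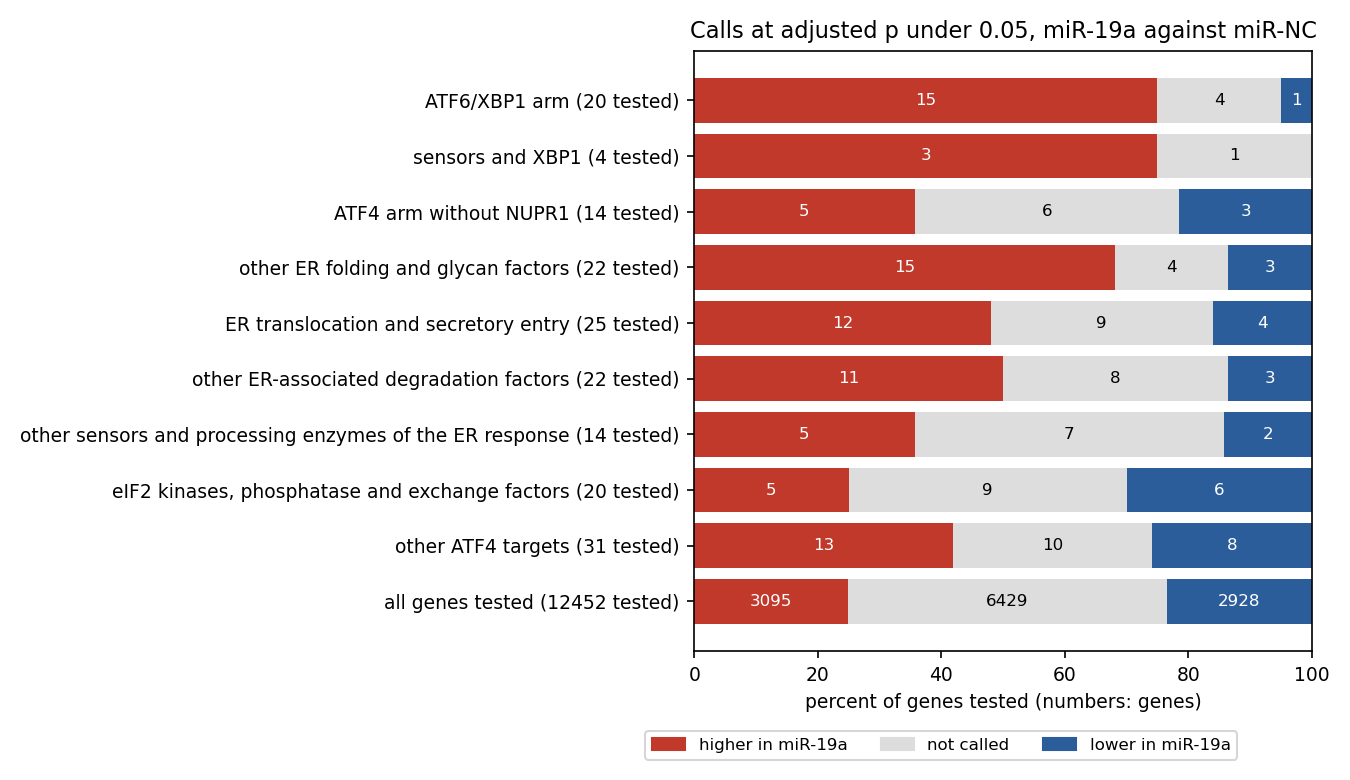
Share of tested genes called higher (red), not called (grey) and called lower (blue) in miR-19a against miR-NC, for the 3 member groups without NUPR1, the 6 lists of other pathway genes and all tested genes; numbers inside bars are genes. The ER arm (15 of 20) and the other ER folding factors (15 of 22) have more genes called higher than the 3095 of 12452 among all tested genes, while the eIF2 list (5 higher, 6 lower) does not.

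The eIF2 machinery upstream of ATF4 showed no common direction, with 5 of 20 genes higher and 6 lower (median -0.01). The same holds for all tested genes, with 24.9% higher and 23.5% lower, so these counts set the eIF2 list little apart. EIF2AK1 (HRI), the heme and mitochondrial stress kinase, fell by 0.33 (SE 0.041) and EIF2AK4 (GCN2), the amino acid kinase, by 0.31 (SE 0.056), in contrast to the rise of the PERK gene EIF2AK3. EIF2S1, the phosphorylated subunit of eIF2, rose by 0.27 (SE 0.042).

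Other ATF4 targets were called in both directions, with 13 of 31 higher and 8 lower (median 0.09). Over all tested genes 24.9% were called higher and 23.5% lower, also in both directions. SESN2, a leucine-binding inhibitor of mTORC1, had 47.6, 49.3 and 49.1 CPM in miR-19a, against 25.4, 25.6 and 30.7 CPM in miR-NC (0.84, SE 0.066). CBS, the entry enzyme of transsulfuration, rose by 0.88 (SE 0.084) and DDIT4 by 0.68 (SE 0.039). On the other side SLC7A11, the cystine importer, averaged 231.4 CPM in miR-19a and 389.5 CPM in miR-NC (-0.75, SE 0.039). GDF15 averaged 81.2 CPM in miR-19a and 143.1 CPM in miR-NC (-0.82, SE 0.045). The glycine transporter SLC6A9 fell by 1.21 (SE 0.12), with 7.9, 5.71 and 7.96 CPM in miR-19a, against 17.7, 18.2 and 13.9 CPM in miR-NC. The other amino acid transporter genes on this list were all called higher: SLC7A1 (0.51), SLC7A5 (0.38), SLC38A2 (0.30), SLC1A4 (0.24), SLC3A2 (0.16) and SLC1A5 (0.15). Established targets of the same factor moved in opposite directions, TRIB3, ATF3, SESN2, CBS and DDIT4 up and SLC7A11, SLC6A9 and GDF15 down.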

How the data were processed

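RNA from 6 A549 libraries was poly(A)-selected and read as pairs of 150 nt, per the labels' protocols, and the submitters' processing notes name bcl2fastq 2.17.1.14. No source used here names the aligner, counter, annotation, build or strand setting. The deposited table holds a raw count and an FPKM value per gene and library, both named per the file headers; the authors' FPKM are rounded to 2 decimals.

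Genes whose mean FPKM reached 1 were tested with edgeR 4.0.16 (R 4.3.3, TMM, quasi-likelihood), and each standard error was derived from the log2 fold change and its F statistic. The same code was tested on simulated data. Symbols came from a gene name table (39538 identifiers) and GENCODE v29 (12800), and 1 of 164 list entries matched no identifier. The members and lists were chosen with earlier results of these data known. Named list genes are at most the 3 largest called rises and falls of each list, apart from the cell type markers and the amino acid transporters among the ATF4 targets. Alternatives used DESeq2 1.42.0, limma 3.58.1 on log2(FPKM + 1) and log2(FPKM + 0.1), other factors and filters, a replicate block and each library left out. Libraries of a group were not copies of each other, with a chi-square per gene of 1.60 to 4.22. Counting noise alone gives a value near 1, and pairs across groups had 27.3 to 30.9. These values do not show whether libraries of a group came from separate cultures.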

Additional observations from a re-analysis of the deposited data

How the results depend on the processing

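Counts of members called higher lay between 21 and 23 under 15 alternatives, against 23 as reported, and the ER arm's 15 rises became 16 when miR-19a replicate 2 or miR-NC replicate 1 was left out. The ATF4 arm's 5 rises fell to 3 with library totals alone and with limma at either pseudocount, where ATF4 and CEBPB lost their calls. They also fell to 3 with a minimum of 5 FPKM, which removes ATF3 and CHAC1 from testing. With each library left out in turn the ATF4 arm had 3 to 4 rises and 0 to 3 falls, and the members called lower numbered 1 to 4. An alternative added after the data were seen, leaving out 7 members that share exon positions with a gene of at least 10% of their count, gave 21 higher and 1 lower, with 13 rises and 0 falls in the ER arm and 5 rises and 1 fall in the ATF4 arm. Some uncalled members near 0 changed sign. With each library left out in turn, the log2 fold change of CANX lay between -0.02 and 0.02, of SYVN1 between -0.01 and 0.07, of PSAT1 between -0.01 and 0.07 and of PPP1R15A between -0.07 and 0.03, and CANX was 0.00 with no filter. Libraries with the same replicate number showed no shared deviation from their group means (correlations 0.00848, 0.000548 and -0.0310), which cannot show whether they were prepared together. With the replicate block 23 members were higher and 4 lower, with no member's call changed. For members with few counts (DERL3, NUPR1) depth limits precision.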
